A study of Mus musculus with 2 samples.

Results

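The platelet glycoproteins and megakaryocyte genes described here are 9 genes chosen by symbol: the von Willebrand receptor subunits Gp1ba, Gp1bb, Gp5 and Gp9, the receptor's ligand Vwf, the integrin subunits Itga2b and Itgb3, and the granule chemokines Pf4 and Ppbp. They are 9 of 22907 genes that could be named on the arrays, and are carried by 11 probes. The arrays were run on RNA of LKS+ cells, which lack lineage antigens, carry Kit and Sca-1, and include the hematopoietic stem and progenitor cells of the BM. They came from WT mice and were propagated in serum-free medium with stem cell factor, IL-6 and IL-3, the labels naming no thrombopoietin. The cells were then co-cultured for 24 h with 150 μg/ml of EVs from the SP of normal mice (control EVs) or of CML mice (CML EVs). CML mice were recipients of LKS+ cells infected with a BCR-ABL retrovirus, and had been transplanted after irradiation together with normal BM cells. According to the methods, the CML donors of the EVs used for the arrays were irradiated again before their SP was taken, which the labels do not mention, so that the donors' leukemia and their irradiation cannot be told apart.

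Megakaryocytes are the large BM cells that shed platelets. On both cells, the products of Gp1ba, Gp1bb and Gp9 form a receptor complex joined by that of Gp5, which tethers platelets to von Willebrand factor on injured vessel walls. The integrin αIIbβ3 then binds fibrinogen and links platelets to each other, and α-granules release chemokines such as platelet factor 4. Of these genes, Itga2b, which encodes CD41, is also used in early hematopoietic progenitors, and Vwf is also a gene of endothelial cells and of platelet-biased stem cells.

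One array was hybridized per condition. No p-value could therefore be computed, and each difference below is one between 2 cultures with no replicate check. Signals were scaled to the same trimmed mean on both arrays, and each log2 ratio takes the CML EV signal over that of control EVs, a negative one being lower with CML EVs. Well above background were 54.4% of 59305 spots with control EVs and 53.3% with CML EVs, and saturation was not reached by any. Technical error could be measured in a pair of ways. Among 272 bright probes placed 10 times on each array, the log2 ratio of single spots had a median SD of 0.05. The error that the scanner software assigned to each signal, gave the log2 ratio of each of the 9 genes an SE between 0.20 and 0.21. Neither covers differences between cultures or EV preparations. Because cells were measured in bulk, fewer megakaryocyte-type cells and less RNA per cell cannot be told apart. Each probe binds with its own strength, so signals are compared between arrays and not between genes.

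Each of the 9 genes was detected well above background in either culture, and all 9 had a lower signal with CML EVs, by 1.06-fold to 1.35-fold. The 4 subunits of the von Willebrand receptor lay together at the lower end. Gp1ba, whose product carries the binding site for von Willebrand factor, reached 867 scaled units after control EVs and 671 after CML EVs. Its log2 ratio was -0.37, or 1.29-fold lower. Gp1bb, for the small subunit linked to it by disulfide bonds, had signals of 337 and 249, a log2 ratio of -0.44 and the lowest ratio of the 9 genes. The array holds another probe for Gp1bb, which was dim at signals of 19.3 and 15.0 and well above background with control EVs only. The signals of that probe differed by 1.28-fold in the same direction. The scanner SE of their log2 ratio was 0.44, so they set no lower limit. Gp5, for the subunit that thrombin cleaves, was lower by almost the same amount as Gp1bb, at signals of 576 and 426 and a log2 ratio of -0.43. Gp9, for the subunit needed to bring the complex to the cell surface, had signals of 2649.7 and 2088 and a log2 ratio of -0.34. The 4 ratios thus lay between -0.44 and -0.34 with a median of -0.40, a range narrower than the scanner SE of any of them.

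**Figure D1:**
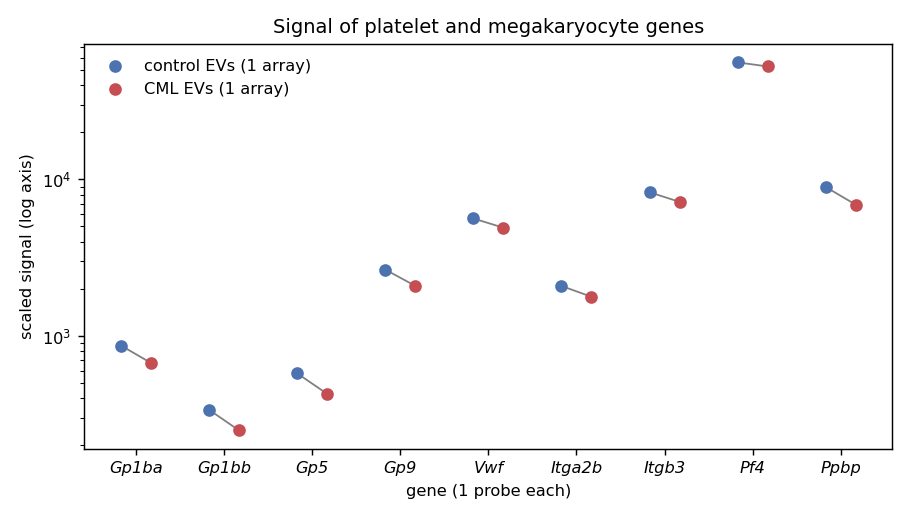
Scaled signal on a logarithmic axis for the probe used for each of the 9 genes, with control EVs (blue) and CML EVs (red), 1 array each and with no error bars; grey lines join the values of a gene, and heights are not comparable between genes. The red point is lower than the blue one for each gene, from 337 to 249 for Gp1bb and from 55955 to 52699 for Pf4.

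Since the genes of this complex lay lower together, the RefSeq sequence of the 250 bases upstream of their annotated starts (build GRCm38.p6) is shown, written 5′ to 3′ on the strand of the gene. Capitals mark the hexamers AGATAA or TGATAA, to which GATA factors such as GATA1 can bind, and AGGAAG and CGGAAG, to which ETS factors such as FLI1 can bind. Both strands were searched, and no match overlaps another. Gp1ba is from chr11:70638872-70639121 on the plus strand, Gp1bb from chr16:18622404-18622653 on the minus strand, Gp5 from chr16:30310782-30311031 on the minus strand and Gp9 from chr6:87777820-87778069 on the plus strand.
Gp1ba: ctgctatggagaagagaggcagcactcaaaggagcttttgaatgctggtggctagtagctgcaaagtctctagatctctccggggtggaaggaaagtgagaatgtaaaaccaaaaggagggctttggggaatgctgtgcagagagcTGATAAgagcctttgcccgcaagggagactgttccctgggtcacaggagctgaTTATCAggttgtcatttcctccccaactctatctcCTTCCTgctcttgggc
Gp1bb: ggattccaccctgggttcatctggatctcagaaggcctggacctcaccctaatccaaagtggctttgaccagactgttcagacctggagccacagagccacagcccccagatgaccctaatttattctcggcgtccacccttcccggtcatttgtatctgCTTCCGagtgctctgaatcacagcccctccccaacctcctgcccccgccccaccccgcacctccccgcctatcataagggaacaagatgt
Gp5: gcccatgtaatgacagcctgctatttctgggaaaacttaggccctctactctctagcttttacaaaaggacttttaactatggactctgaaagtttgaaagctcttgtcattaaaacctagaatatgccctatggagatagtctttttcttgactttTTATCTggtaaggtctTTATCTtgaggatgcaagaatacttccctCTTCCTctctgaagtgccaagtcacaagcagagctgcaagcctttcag
Gp9: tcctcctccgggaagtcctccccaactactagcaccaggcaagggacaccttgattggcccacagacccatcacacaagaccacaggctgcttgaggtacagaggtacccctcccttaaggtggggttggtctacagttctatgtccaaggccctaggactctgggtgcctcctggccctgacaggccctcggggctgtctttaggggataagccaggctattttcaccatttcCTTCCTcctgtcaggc

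An ETS hexamer occurred in each of the 4 sequences. In Gp1ba and Gp9 it lay at the same distance, from -16 to -11 relative to the start, in Gp5 from -48 to -43 and in Gp1bb from -90 to -85. For GATA factors only AGATAA and TGATAA were searched, and sites of other sequence are not marked. These hexamers occurred in 2 of the 4 sequences, each of which held 2. They were Gp1ba, from -104 to -99 and from -51 to -46, and Gp5, from -93 to -88 and from -77 to -72. Among the 7 of the 9 genes with a promoter in the RefSeq table, 6 held an ETS hexamer and 2 a GATA hexamer, against 39.2% and 16.6% of all 32851 promoters. Pf4 held an ETS hexamer from -9 to -4 and Itga2b 2 of them, and Ppbp held none of the 4 hexamers in this window. These are matches of letters, and factor binding was not measured.

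Vwf and the integrin were lower by less than the receptor subunits. Vwf, which encodes the ligand of that receptor, had a signal of 5627 after control EVs and of 4911 after CML EVs, or a log2 ratio of -0.20. Itga2b, for the αIIb subunit, had signals of 2084 and 1778 and a log2 ratio of -0.23. Itgb3, for the β3 subunit that is also shared with the αv integrin, had signals of 8273 and 7186 and a log2 ratio of -0.20. Both integrin subunits were therefore lower to a like extent, at 1.17-fold and 1.15-fold. Another probe of Itgb3, dimmer at signals of 146.5 and 141.8, gave a log2 ratio of only -0.05. With the probe used for each gene, the ratios of Vwf and both integrin subunits, from -0.23 to -0.20, lay closer together than the median SD of 0.05 between repeated spots. With the mean of its probes Itgb3 lay at -0.13, farther from the other genes.

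The granule chemokines differed from each other. Ppbp, which encodes the precursor of β-thromboglobulin and NAP-2, had signals of 8929.6 and 6896, so that it was 1.29-fold lower at a log2 ratio of -0.37, within the range of the receptor subunits. Pf4, for platelet factor 4, had signals of 55955 and 52699, and was only 1.06-fold lower at a log2 ratio of -0.09. This was the ratio nearest to 0 among the 9 genes and corresponded to -0.42 scanner SE. Both genes lie side by side in the CXC chemokine cluster. The Pf4 signal was below saturation, since the brightest spot reached 315779 with control EVs and 307909 with CML EVs.

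**Figure D2:**
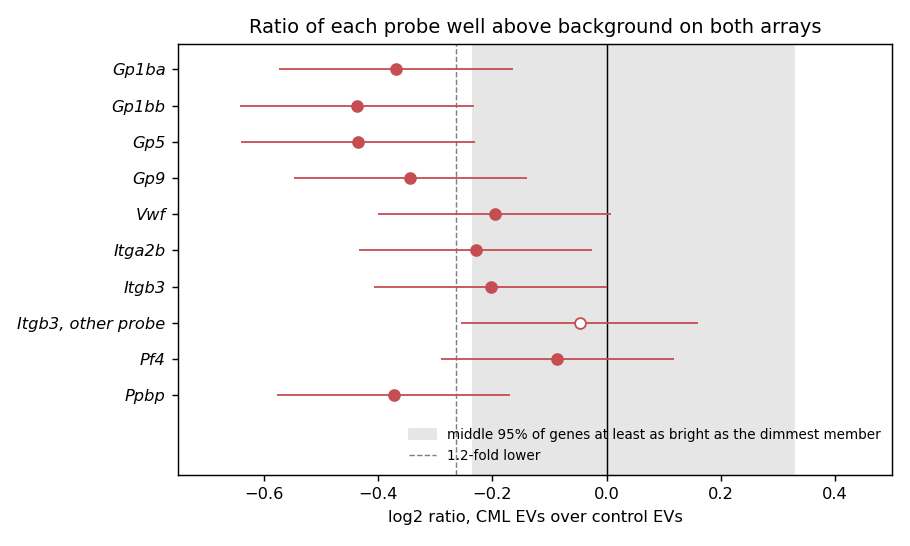
log2 ratio (CML EVs to control EVs) for the 10 of 11 probes that were well above background on both arrays; points are single spots on 1 array per condition, bars are 1 SE from the scanner's error of each signal, the open point is the second probe of Itgb3, and the grey band is the middle 95% of genes at least as bright as the dimmest of the 9. Of the filled points 5 lie left of the dashed line at 1.2-fold lower, and the points of Gp1bb and Gp5 lie farthest from 0.

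At least 1.2-fold lower were 5 of the 9 genes, Gp1ba, Gp1bb, Gp5, Gp9 and Ppbp, against 7.52% of the 13409 genes well above background on both arrays. None of the 9 was 1.2-fold higher, against 6.96% of all genes. These shares of all genes were 4.94% lower and 11% higher when the arrays were scaled by their medians, and 2.12% lower and 3.85% higher after normexp background correction, with 5 and 7 of the 9 genes lower and none higher. At 1.5-fold none was lower, against 1.18% of all genes, and none higher, against 1.52%. Dim genes vary more, and among the 8821 genes at least as bright as the dimmest of the 9, with a mean signal of 289 or more, only 1.86% were 1.2-fold lower and 4.15% higher, and at 1.5-fold these shares were 0.17% and 0.669%. The median log2 ratio of the 9 genes was -0.34, while that of all genes was 0.0065 and that of the bright genes 0.018. A ratio below 0 was found for 48.1% of all genes and 43.4% of the bright genes, and for 9 of the 9. Gp1bb had a lower ratio than all but 2.63% of the 13409 genes and Gp5 than all but 2.69%, whereas 25.8% of genes had a lower ratio than Pf4. In units of the scanner SE, the ratios of the 9 genes ran from -2.13 for Gp1bb to -0.42 for Pf4. How many of all genes lay that far below 0 in these units was not computed.

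**Figure D3:**
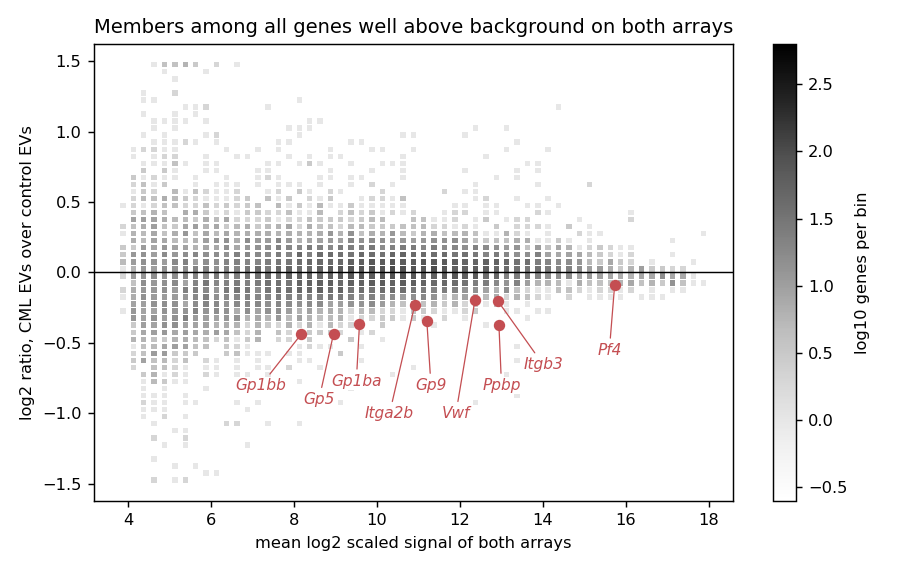
log2 ratio (CML EVs to control EVs, vertical axis) by brightness (average log2 scaled signal, horizontal axis); grey squares are bins of the 13409 genes well above background on both arrays, darker with more genes on a log10 scale, with ratios beyond the axis drawn at its ends, and red points are the 9 genes. The red points lie below 0 and, apart from Pf4 at -0.09, along the lower edge of the genes of like brightness.

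Other genes of the lineage were read from 5 lists with 115 genes in all, 112 of them measured above background on each array. Of these 16 (14.3%) were at least 1.2-fold lower and 4 (3.57%) higher, with a median log2 ratio of -0.07. Among all 13409 genes 7.52% were that much lower and 6.96% higher, and 48.1% had a ratio below 0. When the arrays were scaled by their medians instead, the list counts were 8 and 8, against 4.94% and 11% of all genes. The list median was then 0.0040 and that of all genes 0.077. The lower genes of the lists were mostly receptors. Of 25 other surface receptors of platelets and megakaryocytes, 22 had a lower signal with CML EVs and 9 (36%) were at least 1.2-fold lower, while 1 was that much higher, and the median log2 ratio was -0.23. Tbxa2r, the thromboxane receptor, had signals of 622 and 425 and was 1.47-fold lower. Selp, for the α-granule adhesion molecule P-selectin, was 1.32-fold lower at signals of 433 and 328, and all 3 of its probes were lower, with log2 ratios from -0.60 to -0.21. Others at least 1.2-fold lower, named after their values were seen, were Pear1, Slamf1, Cd36, P2rx1, F11r and Cd9, at log2 ratios from -0.39 to -0.29. Cd36, P2rx1, F11r and Cd9, at -0.32 to -0.29, did not reach 1.2-fold with median scaling, which raises every log2 ratio by 0.07. Clec1b, the receptor of podoplanin, lay at -0.24, close to Itga2b. Gp6, the collagen receptor, lay at -0.06 and P2ry1, one of the ADP receptors, at 0.06. The single higher gene was Itga2, for the α2 subunit of another collagen receptor, at signals of only 15.8 and 31.1, whose log2 ratio of 0.98 became 0.03 after normexp.

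Granule genes had a median log2 ratio of -0.01. Against 7.52% of all genes, 4 of the 25 (16%) were at least 1.2-fold lower. These were Clu, for the secreted chaperone clusterin, at 1.25-fold, the granule transport gene Rab27b at 1.24-fold, Slc35d3, needed for dense granules, at 1.23-fold and Timp3, an inhibitor of metalloproteinases, at 1.21-fold. When the arrays were scaled by their medians, which raises every log2 ratio by 0.07, none of the 4 reached 1.2-fold. Clu, Rab27b and Slc35d3 then lay at log2 ratios of -0.25, -0.23 and -0.23. F13a1, for the A chain of coagulation factor XIII, had signals of 10626 and 12829.5, which is 1.21-fold higher, and is a gene of monocytes too. Its log2 ratio of 0.27 was below the threshold with quantile normalization (0.24) and normexp (0.18). In the list of integrin activation, cytoskeleton and platelet release, 3 of 27 genes (11.1%) were lower and 2 (7.41%) higher by that measure. Of all genes 7.52% were lower and 6.96% higher. Mpig6b, an inhibitory receptor of megakaryocytes, was 1.28-fold lower at signals of 28.3 and 22.2, and Arhgap6, for a GTPase-activating protein, 1.27-fold lower. Neither reached 1.2-fold after normexp, at log2 ratios of -0.07 and -0.262, and Arhgap6 did not with the mean of its probes, at -0.16. Myl9, for a myosin light chain, was 1.36-fold higher at signals of 119.8 and 163.0. The probes of Parvb, for an actin-binding partner of integrin-linked kinase, went in both directions, at -0.52 and 0.31. Tubb1, the β-tubulin of megakaryocytes and platelets, was dim at signals of 27.7 and 15.97 and well above background with control EVs only. Its signals differed by 1.73-fold, with a scanner SE of 0.41 on the log2 ratio, and set no lower limit.

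Of 21 transcription factors of the lineage, 0 were lower and 0 higher by 1.2-fold, against 7.52% and 6.96% of all genes. In a list of this size such counts are near those shares. Zfpm1 was lower by that much with quantile normalization (-0.27) and normexp (-0.264), and Meis1 with the mean of its probes (-0.31). The median log2 ratio of the 21 factors was -0.07. Gata1 had signals of 2622 and 2616, Fli1 1872 and 1842, and Nfe2, which drives the late genes of platelet release, 14036 and 14495.5. Runx1 lay at -0.08. The lowest of them were Zfpm1, for the GATA1 cofactor FOG1, at -0.25, Meis1 at -0.19, Tal1 at -0.15 and Ldb1 at -0.15. In the thrombopoietin list 0 of 14 genes passed 1.2-fold in either direction, which is again near the shares of all genes. Tyk2 did pass with median scaling (0.31), and the median of the list was -0.01. Thpo itself was dim at signals of 30.5 and 27.0, and Stat5a, Jak2 and Tyk2 had log2 ratios of -0.19, -0.17 and 0.23. Another probe of Stat5a gave 0.07 and another of Jak2 0.45, so the probes of both genes went in both directions.

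**Figure D4:**
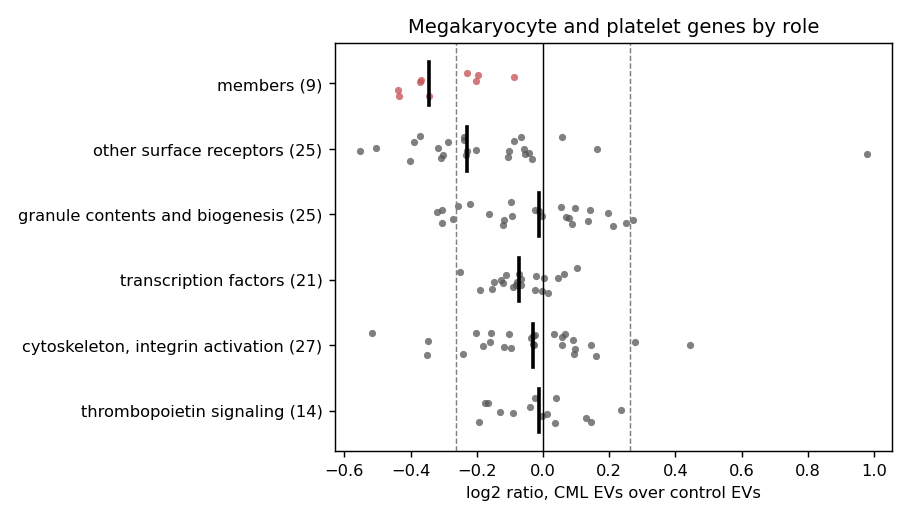
log2 ratio (CML EVs to control EVs) for single genes well above background on both arrays (points, with their number in parentheses), by role; black bars are medians, dashed lines mark 1.2-fold lower and higher, and the vertical scatter within a row has no meaning. The 9 genes (red) and the other surface receptors lie to the left with medians of -0.34 and -0.23, and the transcription factors lie within the dashed lines under this scaling and probe choice, which Zfpm1 crosses with quantile normalization and normexp and Meis1 with the mean of its probes.

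Marker genes of other cells were read beside these. Kit and Ly6a, for the sorted antigens c-Kit and Sca-1, were well above background in either culture, at log2 ratios of -0.11 and 0.36, as was Cd34 at -0.18. Of 11 measured stem and progenitor genes 10 were lower, against 48.1% of all genes, with a median of -0.18. Among the antigens of the lineage sort that were on the array, Cd8a was not above background, but Cd4 and Itgam were. Neutrophil markers moved the other way. Of 13 measured, 11 were higher and 9 at least 1.2-fold, against 6.96% of all genes, with a median log2 ratio of 0.44. Their summed signal was 539323 on the control EV array and 700169 on the other. Mmp9 was not above background on either array. Erythroid genes, which belong to the lineage closest to megakaryocytes, had a median of -0.04 over 9 genes, with 1 at least 1.2-fold lower, and the summed signals were 8110 and 8083. Of these erythroid genes 5 were lower and 4 higher. Among them Hbb-bt, for a β-globin, was lowest at -0.70 with signals of 510 and 314. The globin gene Hba-a1 was higher, at 0.23, and its other probe gave 0.27. Klf1 lay at 0.23 and Epor at -0.06, although another probe of Epor gave 0.49. Medians were 0.05 for 11 monocyte and macrophage genes, with summed signals of 64413 and 82542 that differ mostly through Ly6c2 (30081 and 47021), and 0.04 for 10 mast cell and basophil genes, with 48523 and 51284. B cell genes had a median of 0.03 over the 3 of 8 detected on each array, with Cd79b at signals of 734 and 751, while Cd79a and Ms4a1 were not well above background on either. T and NK cell genes had a median of -0.07 over 5 of 9, with Thy1 at 7703 and 9431 and Lck at 1212 and 1130, while Cd3g and Ncr1 were not well above background. In the list of endothelial cells, which also express Vwf, and of spleen stroma, the median was -0.04 over 5 of 11 genes and the summed signals were 792 and 810. There Pecam1 had signals of 219 and 216 and Kdr of 116 and 159, and Cdh5, Col1a1, Col3a1 and Madcam1 were not well above background on either array. The part of these other cell types in the lower signal of the 9 genes was not tested.

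**Figure D5:**
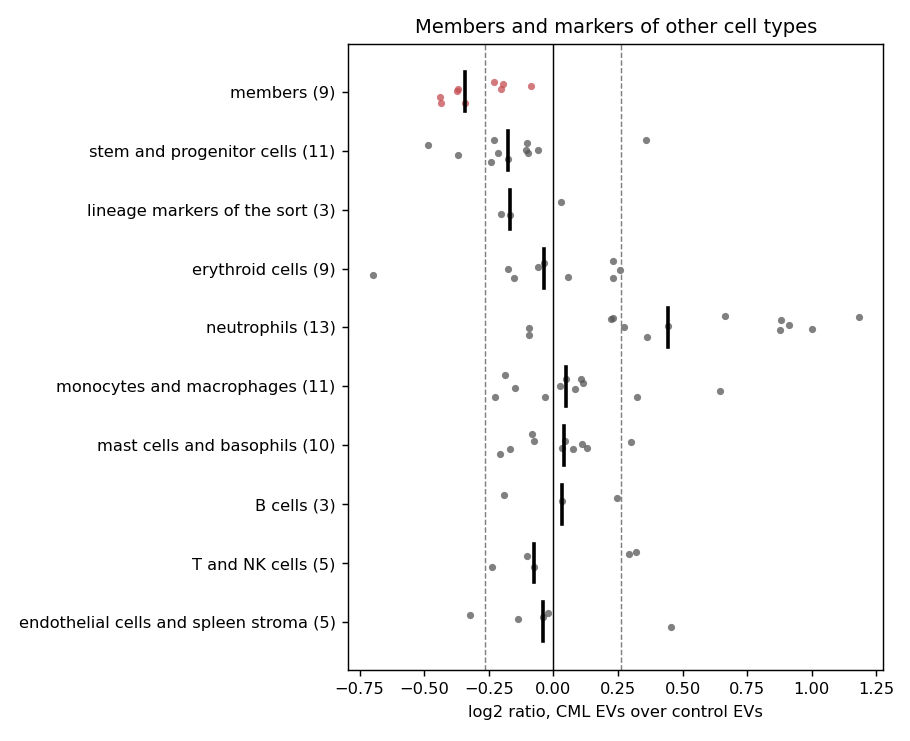
log2 ratio (CML EVs to control EVs) for the 9 genes (red) and for markers of other cell types (grey), each point being 1 gene well above background on both arrays with the number in parentheses; black bars are medians and dashed lines mark 1.2-fold lower and higher. The 9 genes lie at a median of -0.34 and neutrophil markers at 0.44, with the erythroid median near 0.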

How the data were processed

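The members and gene lists were chosen with earlier results of these data known. Per the file headers, the authors' scanner files hold spot intensity from one-color Cy3 arrays, background-subtracted and detrended by Agilent Feature Extraction 12.0.3.1 (submitters' processing notes). The authors' value table is this intensity on a linear scale, each array multiplied by a constant.

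Here, control spots were removed, as were 95 outlier spots of the control EV array and 88 of the CML EV array. Signals were multiplied so that the trimmed mean (2% off each end) became 2500, after the methods. Probes were named by unversioned RefSeq accession with the GRCm38.p6 gene table (32989 of 56605 probes). The array design refers to another build, so the promoter positions given belong to the RefSeq sequences only. The probe with the highest CML EV signal represented a gene. For a probe above background on 1 array only a fold was taken. The brighter signal was set against the dim one or, if higher, the detection floor of the dim array (12.9 with control EVs, 13.6 with CML EVs). Such a fold carries the error of both signals and is not a strict limit. Named genes were the 9 members, the 4 largest absolute ratios of each list and genes of the rule itself (Gata1, Fli1, Nfe2, Runx1, Gp6, Clec1b, Selp, Tubb1 and Thpo); other genes were named after their values were seen, and some genes are not reported here. The calculation was tested on simulated data. Alternatives changed scaling, background correction (normexp with an offset of 50, limma 3.58.1), probe choice, filters and fold. Python 3.11.15, pandas 2.3.3 and R 4.3.3 were used. The number of arrays limits the precision.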

Additional observations from a re-analysis of the deposited data

How the results depend on the processing

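No paired analysis was possible because there is only a single array per condition. The log2 ratio of each of the 9 genes was below 0 in all 81 values from 9 alternatives, Pf4 coming closest at -0.016 with median scaling. Not all of these are separate checks. The authors' values, the kept outlier spots and the choice of probe by control EV signal gave the same ratios as the main calculation for all 9 genes. At least 1.2-fold lower were 5 genes under 10 of 11 alternatives of scaling, probe and filter and 7 with normexp. The looser filters could not change this count, since all 9 genes were well above background on both arrays. At 1.5-fold 0 genes were lower, and 0 at 2-fold. The median of the 9 genes (-0.34) was -0.27 with median scaling, which raises every gene by 0.07. Pathway genes at least 1.2-fold lower and higher (16 and 4) were 8 and 8 with median scaling, against 4.94% and 11% of all genes. They were 0 and 1 at 1.5-fold (1.18% and 1.52% of all genes) and 0 and 0 at 2-fold (0.224% and 0.395%). With quantile normalization 2 were higher (7.67% of all genes) and with normexp 2 (3.85%). The median of the pathway genes (-0.07) was 0.0040 with median scaling, where that of all genes was 0.077. Of the named genes of the lists the sign turned for Gata1 with the 75th percentile (0.0043), the mean of all spots (0.0074) and the median (0.067), for Fli1 (0.048) and Gp6 (0.013) with the median, and for Jak2 (0.14) and Runx1 (0.012) with the mean of all probes. Apart from fold thresholds and the shift by median scaling, the cause was not tested. Dim probes such as those of Tubb1, Itga2 and Thpo lie near the background, where the SD between repeated spots had a median of 0.26 (12 probes).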

Other observations

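The genes next to the 9 were read as well, taking 2 protein-coding neighbors on either side in RefSeq gene order, a choice made after the data were seen. Of 32 such genes 17 were well above background on both arrays, with a median log2 ratio of -0.03. Of the 17, 2 were at least 1.2-fold lower and 1 was higher, against 7.52% and 6.96% of all genes. In so short a list these counts are near those shares. The higher one is Septin5, a gene for a GTP-binding septin protein that lies directly beside Gp1bb. Its signal was 482 after control EVs and 922 after CML EVs, a log2 ratio of 0.94, while Gp1bb lay at -0.44. Another probe of Septin5 gave 0.59 at signals of 69.3 and 104.5, so that both of its probes were higher. The other probe of Gp1bb was dim and well above background with control EVs only, so it gave no ratio. The 2 lower neighbors were Cd9, which lies beside Vwf and is itself a platelet tetraspanin, at -0.29, and Cxcl3, which lies beside Pf4, at -0.34 and signals of only 29.3 and 23.2. On the other side of the chemokine pair, Cxcl5 lay at 0.05 with signals of 104.9 and 108.9.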
